A study of Rattus norvegicus with 24 samples.

Results

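The sire effect is the difference between offspring of morphine-exposed and of saline-exposed fathers, and here it was compared between 2 brain regions, gene by gene, over all 24 RNA-seq libraries of the series. The question was which genes differed by sire in opposite directions in the regions and which differed in the same direction. Of 37403 genes in the deposited tables, 15283 were compared, those with at least 1 CPM (a count scaled to its library's total) in 5 or more libraries of each region. The remaining 22120 genes did not reach that level in both regions. Among them was Slc6a3, the dopamine transporter, which was too low in the nucleus accumbens.

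All 4 groups were adult male F1 rats, per the labels, aged 60 days or more, whose fathers had self-administered a solution for 60 days. SAL-sired NAC (7 libraries) and MOR-sired NAC (7 libraries) were punches of the nucleus accumbens of saline-sired and morphine-sired rats, and SAL-sired VTA (5 libraries) and MOR-sired VTA (5 libraries) were punches of the ventral tegmental area. The offspring are not labelled as having received any drug themselves, and no strain, litter or dam is given. The labels call the libraries biological replicates without naming animals. The p-values here set a difference only against the spread between such libraries, which may be technical. Whether a NAC and a VTA punch came from 1 rat is not known. The 2 regions were deposited as separate tables, so the comparison uses only differences within each region, and levels were not tested between regions.

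The VTA holds the dopamine neurons of the midbrain reward pathway, and the NAC, a striatal region of mostly inhibitory medium spiny neurons, receives their axons. Opioids act in both regions through receptors on neurons and change dopamine release. Both regions also hold microglia, the resident immune cells of the brain, which respond to repeated opioid exposure in animals that receive the drug. A bulk punch averages all of these cells, so a lower value can mean fewer cells of a type or less of the RNA per cell, and these cannot be told apart.

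Some libraries stood apart. The estimated counts of a library summed to between 21.9 and 41.3 M in NAC, and to between 23.6 and 43.5 M in VTA. Xist, an RNA made in female cells from the silenced X chromosome, was at 78.9 to 108 CPM in 4 VTA libraries labelled male (the fifth SAL-sired one and numbers 3, 4 and 5 of MOR-sired), which had at most 0.0762 CPM of the Y-linked Ddx3y. In the other 20 libraries Xist was at most 0.245 CPM and Ddx3y at least 28.7 CPM. Identifiers of ribosomal RNA took 13.5% of the counts in MOR-sired VTA 2 and 6.07% in MOR-sired VTA 4, against at most 0.793% in any other library. The VTA libraries also differed in transcripts of serotonin neurons, whose cell bodies lie in the neighbouring raphe: Tph2, the serotonin-synthesising enzyme, was at 14.5, 54.2, 0.546, 0.330 and 45.1 CPM in SAL-sired VTA 1 to 5 and at 156, 166, 59.5, 151 and 73.9 CPM in MOR-sired VTA 1 to 5. These Tph2 ranges did not overlap. In NAC, the summed level of 24 markers of striatal medium spiny neurons ran from 1369 to 12578 CPM in the MOR-sired libraries and from 3143 to 10003 CPM in the SAL-sired ones. Values without the libraries with Xist, or without those rich in ribosomal RNA, stand beside the genes and lists described most fully. Without the libraries with Xist, VTA keeps only MOR-sired libraries 1 and 2 against SAL-sired libraries 1 to 4. Those MOR-sired libraries had the highest Tph2, and MOR-sired VTA 2 the most ribosomal RNA. Values from that setting therefore rest on few libraries that differ in these respects too.

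No gene passed the test of the difference between regions. For each gene the interaction was computed as the log2 fold change in VTA minus that in NAC, each as MOR-sired over SAL-sired, so a positive value means a relatively higher level in MOR-sired VTA. With edgeR's quasi-likelihood test and Benjamini-Hochberg adjustment, 0 of 15283 genes (0%) had an adjusted p under 0.05, and the smallest, that of Stk32b, was 0.241. At an unadjusted p under 0.05 there were 623 genes (4.08%), 301 with a positive and 322 with a negative interaction. DESeq2 on the same counts called 30 genes, of which 7 were protein-coding with a symbol, and without the 4 libraries with Xist edgeR called 23, of which 8 were. Most of the rest with DESeq2, and all of the rest without those libraries, were ribosomal RNA identifiers, many of them with identical values. Rn45sl1, named for the 45S ribosomal precursor, was among both the 7 and the 8. The edgeR fit over all libraries also tested the average of both regions' sire effects, which asks for shared change. Again 0 genes (0%) passed, the smallest adjusted p being 0.134 for Inpp5b by the same edgeR test. There, 1060 genes (6.94%) had an unadjusted p under 0.05.

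By sign alone, the sire effect was opposite in 7079 of 15283 genes (46.3%) and shared in 8204. Across genes, which are not independent replicates, the 2 effects had Pearson r = -0.04 and Spearman rho = 0.09, and r = 0.13 over the 13549 protein-coding genes with a symbol. The typical effect was small: the median absolute log2 fold change was 0.06 in NAC and 0.07 in VTA, against a median standard error (SE) of 0.09 and 0.11. In NAC alone 1122 genes (7.34%) and in VTA alone 661 genes (4.33%) had an unadjusted p under 0.05, and 42 genes (0.275%) did so in both, which is 3.74% of the NAC genes and 6.35% of the VTA genes. Of these 42, 12 (0.0785% of all genes) went in opposite and 30 (0.196%) in shared directions. Of the VTA genes, 6.35% also reached that threshold in NAC, below the 7.34% of all genes that did so. Of the NAC genes, 3.74% also reached it in VTA, below the 4.33% of all genes. The overlap was therefore no larger than the rates over all genes would give. The 42 are described next without a test of their number, and being among them is not in itself evidence of change in both regions.

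**Figure D1:**
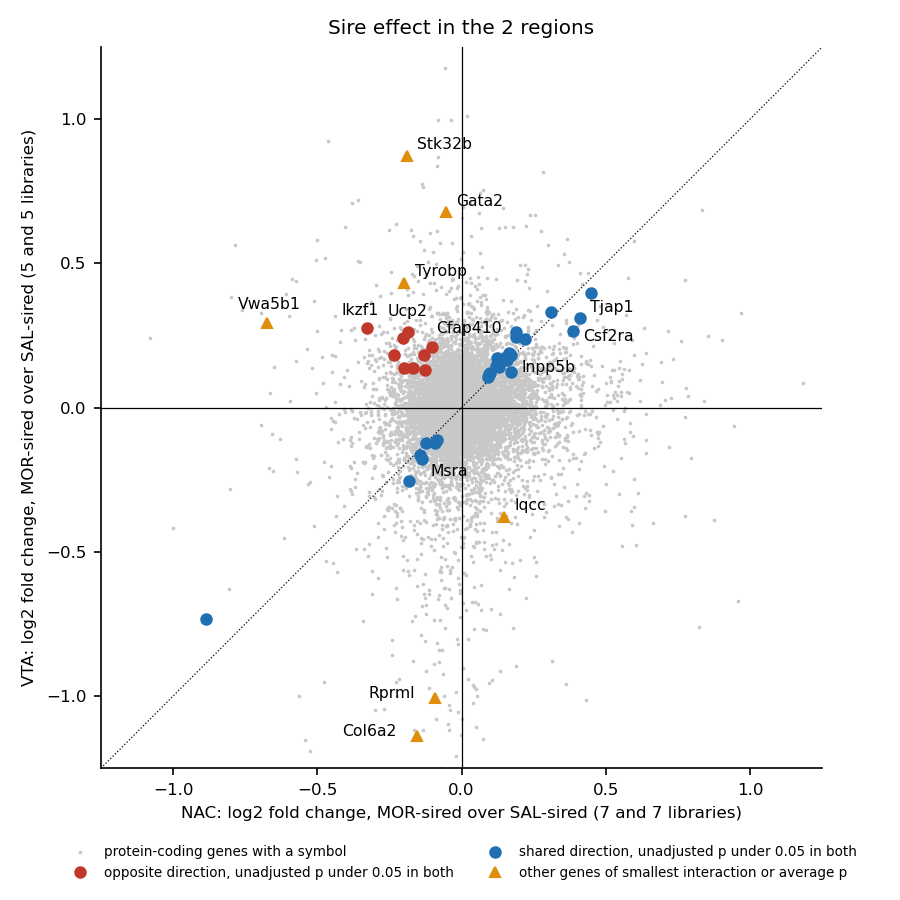
Log2 fold change of MOR-sired over SAL-sired libraries in NAC (x axis) and VTA (y axis) for each protein-coding gene with a symbol, with 38 genes beyond the axes not drawn and the dotted line marking equal effects. The 9 red points (opposite direction) all lie in the upper left quadrant, lower in NAC and higher in VTA, and the 26 blue points (shared direction) lie near the line.

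Of the 12 genes of opposite direction, 9 were protein-coding genes with a symbol, and each of these 9 was lower in MOR-sired NAC and higher in MOR-sired VTA. They were Cfap410, Itpkb, Mtf1, Ikzf1, Ucp2, Tmem176a, Ifi30, Cd84 and Laptm5. The other 3 were long non-coding RNAs, 1 of that pattern and 2 of the reverse. Several of the 9 are genes of immune cells. Ikzf1 encodes Ikaros, a transcription factor of lymphoid and myeloid cells; Cd84 is a surface receptor of the SLAM family; Ifi30 is a lysosomal thiol reductase used in antigen processing; and Laptm5 is a lysosomal membrane protein of haematopoietic cells, in brain mainly of microglia. The effects were modest, with log2 fold changes from -0.33 to -0.10 in NAC and from 0.13 to 0.28 in VTA. Genes chosen for opposite signs at an unadjusted p under 0.05 in both regions must nearly always have a small interaction p. All 9 had one under 0.05 by the same edgeR test, unadjusted. The interaction values given for them below are descriptions, not further support. All 9 stayed higher in MOR-sired VTA without the 4 libraries with Xist, 4 of them then at an unadjusted p under 0.05 in VTA. Only MOR-sired VTA 1 and 2 were left in that group.

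For 3 of these genes the RefSeq promoter window on assembly GRCr8, from 250 bases before to 50 after the annotated start, is shown because they moved together here and because genes of myeloid cells often carry sites of the factor PU.1. Capitals mark GAGGAA, its core as searched on both strands, so that TTCCTC is the same motif on the other strand. The windows lie at chr5:148371630-148371929 (Laptm5), chr14:90468446-90468745 (Ikzf1) and chr4:79105569-79105868 (Tmem176a), all on the plus strand.
Laptm5: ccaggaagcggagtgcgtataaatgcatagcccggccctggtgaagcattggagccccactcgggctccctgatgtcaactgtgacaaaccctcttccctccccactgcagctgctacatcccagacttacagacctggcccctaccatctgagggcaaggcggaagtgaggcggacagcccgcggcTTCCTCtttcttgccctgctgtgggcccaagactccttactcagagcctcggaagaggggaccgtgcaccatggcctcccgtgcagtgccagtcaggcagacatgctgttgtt
Ikzf1: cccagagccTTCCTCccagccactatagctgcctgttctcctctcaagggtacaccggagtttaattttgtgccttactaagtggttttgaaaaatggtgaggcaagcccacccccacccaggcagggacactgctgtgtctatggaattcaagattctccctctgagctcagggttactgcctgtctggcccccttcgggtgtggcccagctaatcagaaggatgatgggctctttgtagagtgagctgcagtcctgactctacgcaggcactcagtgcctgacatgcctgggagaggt
Tmem176a: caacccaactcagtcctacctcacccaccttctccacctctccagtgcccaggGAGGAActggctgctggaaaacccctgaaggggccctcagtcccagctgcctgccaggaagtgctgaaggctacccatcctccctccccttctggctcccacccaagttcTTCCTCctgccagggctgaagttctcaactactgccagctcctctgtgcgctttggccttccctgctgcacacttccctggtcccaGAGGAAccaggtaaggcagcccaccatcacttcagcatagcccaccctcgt
The motif begins 63 bases before the start in Laptm5, 241 before it in Ikzf1, and at 3 places in Tmem176a. It occurred in 27.5% of all 27457 RefSeq promoter windows, in 26.3% of those of genes tested, and in 6 of the 8 opposite-direction genes with a window. Among shared-direction genes with a window it occurred in 6 of 20, and in the microglial list in 8 of 11. The windows shown are all among those that carry it. Both the genes and the motif were chosen after the values were seen, and a match of 6 letters is a description, not a binding site.

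Cfap410, a gene of the ciliary base, had the second smallest interaction p among named genes. Its level in MOR-sired VTA 1 to 5 was 45.4, 44.4, 45.3, 43.5 and 42.9 TMM-scaled CPM, and in SAL-sired VTA 1 to 5 it was 40.5, 40.1, 34.6, 38.1 and 38.3. TMM-scaled CPM is CPM after edgeR's scaling between libraries. It is used for all levels from here and was used for the Tph2 and striatal levels above. Every MOR-sired VTA library was above every SAL-sired one, which was so, in either direction, for 126 genes (0.824%) in VTA and 9 (0.0589%) in NAC. In NAC the lowest, median and highest values were 35.1, 38.6 and 40.1 in SAL-sired and 32.4, 35.1 and 38.1 in MOR-sired libraries, which overlapped. The log2 fold change was -0.10 (SE 0.04) in NAC and 0.21 (SE 0.05) in VTA, and the interaction was 0.31 (95% interval 0.18 to 0.44, unadjusted p = 5.72e-05). By edgeR with Benjamini-Hochberg adjustment its p was 0.374, whereas DESeq2 called it.

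Tmem176a, which encodes a membrane protein of myeloid and other cells, was at a lowest, median and highest of 68.4, 77.9 and 80.7 CPM in SAL-sired NAC and of 63.8, 66.0 and 71.0 CPM in MOR-sired NAC. The 2 groups overlapped through SAL-sired NAC 3, the lowest of its group. In VTA the SAL-sired libraries 1 to 5 had 93.4, 86.8, 96.5, 88.3 and 93.3 CPM and the MOR-sired ones 99.4, 93.2, 101, 121 and 88.5 CPM, an overlap with the highest value in MOR-sired VTA 4. The log2 fold change was -0.20 (SE 0.05) in NAC and 0.14 (SE 0.06) in VTA, with an interaction of 0.34 (SE 0.08, unadjusted p = 0.000419). Leaving out MOR-sired VTA 4 gave an interaction of 0.25, and the VTA log2 fold change was 0.07 without the libraries with Xist.

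Ikzf1 was low in both regions. Its lowest, median and highest values were 2.85, 3.09 and 3.94 CPM in SAL-sired NAC and 2.19, 2.66 and 2.89 CPM in MOR-sired NAC, so the ranges overlapped slightly. In VTA it had 4.31, 5.07, 3.95, 3.72 and 4.01 CPM in SAL-sired libraries 1 to 5 and 5.01, 5.88, 4.17, 6.02 and 4.47 CPM in MOR-sired ones. The highest 2 values, those of MOR-sired VTA 2 and 4, were the libraries rich in ribosomal RNA. Its interaction was 0.61 (SE 0.16, unadjusted p = 0.000834), 0.44 without those 2 libraries and 0.68 without the libraries with Xist.

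Laptm5 had a lowest, median and highest of 25.5, 26.4 and 27.9 CPM in SAL-sired NAC and of 22.8, 23.6 and 25.6 CPM in MOR-sired NAC. Its VTA values were 34.9, 30.2, 29.0, 29.0 and 32.3 for SAL-sired and 34.2, 33.8, 30.7, 41.3 and 30.9 CPM for MOR-sired libraries 1 to 5. The NAC ranges met only at 25.5 to 25.6 CPM, while in VTA the groups overlapped and MOR-sired VTA 4 was again the highest. The interaction was 0.30 (SE 0.09, unadjusted p = 0.00205), and 0.20 without the 2 libraries rich in ribosomal RNA.

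Of the remaining opposite genes, Itpkb, a kinase that acts on inositol trisphosphate, had an interaction of 0.31 (SE 0.08), and Mtf1, the metal-responsive transcription factor, one of 0.26 (SE 0.07). Mtf1 did not overlap in VTA, where MOR-sired libraries lay between 22.2 and 25.4 CPM and SAL-sired ones between 21.2 and 21.9 CPM. Ifi30 had an interaction of 0.42 (SE 0.11) and Cd84 one of 0.45 (SE 0.15). Ucp2, a mitochondrial carrier that is high in immune cells, had an interaction of 0.45 (SE 0.13), but 0.23 without the libraries with Xist (unadjusted p = 0.117), a drop of more than 1.5 times. Its highest VTA values, 50.3 and 55.9 CPM, were in MOR-sired VTA 4 and 5, both libraries with Xist. An alternative model added cell type scores as covariates. These were the mean log2 level of the listed striatal medium spiny neuron genes in NAC, and of the listed dopamine and serotonin neuron genes in VTA. Serotonin neuron transcripts differed by sire in VTA, so this model cannot well separate that score from sire. With cell type scores in the model, the interactions of Ikzf1, Laptm5, Cd84 and Mtf1 were 0.22, 0.16, 0.24 and 0.16, each lower by more than 1.5 times, and that of Cfap410 was 0.26.

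**Figure D2:**
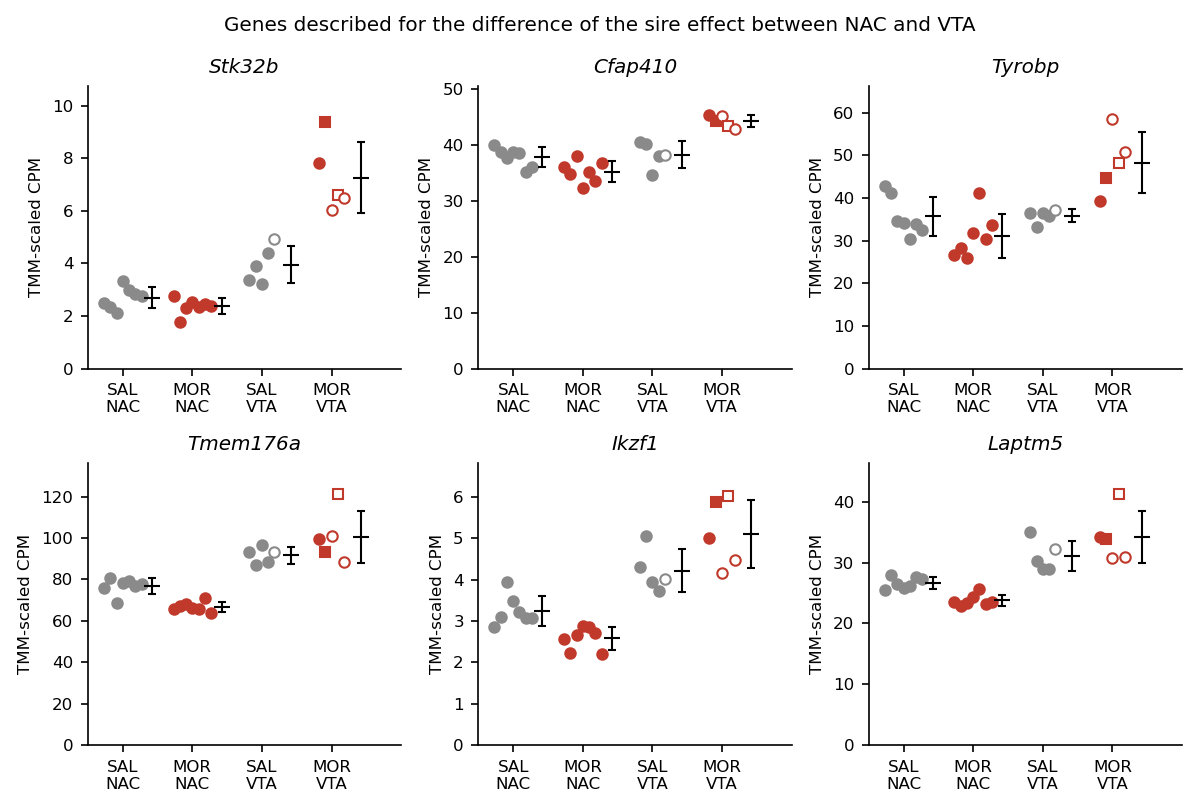
TMM-scaled CPM (y axis, from 0) of 6 genes in each library of the 4 groups (x axis, grey SAL-sired, red MOR-sired), with mean and SD in black, open symbols for the 4 libraries with Xist and squares for the 2 rich in ribosomal RNA. Stk32b, Cfap410 and Tyrobp did not overlap between sire groups in VTA, and all 6 genes had the lower mean in MOR-sired NAC.

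Microglial genes followed the same pattern as a list. Of 18 listed microglial genes that were tested, 15 were lower in MOR-sired NAC and 15 were higher in MOR-sired VTA, and 16 (88.9%) had opposite signs, against 46.3% of all genes. Lower in NAC and higher in VTA were 14 of the 18, against 24.9% of all genes. Over all 15283 genes, 8239 were lower in MOR-sired NAC and 7589 higher in MOR-sired VTA. The median log2 fold change was -0.09 in NAC and 0.08 in VTA, against -0.01 and -0.00 over all genes tested, and the median interaction was 0.19 against 0.00. No member passed the adjusted test, and 5 of 18 had an unadjusted interaction p under 0.05: Tyrobp, Laptm5, Csf1r, Selplg and Cx3cr1. All 5 were positive, where 1.97% of all genes were positive at that threshold. The list was chosen with earlier results of these data known and no test was made of it as a whole. All members were read in the same punches, so their signs are not 18 separate readings.

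Tyrobp, the signalling adaptor that partners Trem2 on microglia, led the list. Its VTA levels were 36.4, 33.2, 36.4, 35.7 and 37.3 CPM in SAL-sired libraries 1 to 5 and 39.3, 44.6, 58.6, 48.1 and 50.9 CPM in MOR-sired ones, with no overlap. In NAC its lowest, median and highest values were 30.4, 34.1 and 42.9 for SAL-sired and 26.0, 30.5 and 41.1 CPM for MOR-sired libraries, which overlapped widely. The interaction was 0.63 (95% interval 0.32 to 0.95, unadjusted p = 0.000413). It was 0.67 without the libraries rich in ribosomal RNA and 0.44 without those with Xist, 3 of which were the highest Tyrobp libraries of VTA, and the VTA log2 fold change was then 0.24 in place of 0.43. The edgeR adjusted p of Tyrobp after Benjamini-Hochberg correction was 0.374, and DESeq2 called it.

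The other members varied. Csf1r, the receptor on which microglial survival depends, had a log2 fold change of -0.16 (SE 0.06) in NAC and 0.09 (SE 0.07) in VTA. Cx3cr1, the fractalkine receptor, had -0.10 (SE 0.08) and 0.18 (SE 0.09), and P2ry12, a purine receptor of resting microglia, had -0.18 (SE 0.11) and 0.15 (SE 0.13). Trem2 itself was at -0.13 (SE 0.06) in NAC and 0.03 (SE 0.07) in VTA. The complement genes C1qa, C1qb and C1qc had interactions of 0.04, 0.13 and 0.00, each smaller than its SE or close to it. Cd68 and Siglec5 had negative interactions, at -0.19 (SE 0.25) and -0.70 (SE 0.47).

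The microglial counts moved with the libraries and the model used. Leaving out 1 library at a time left at least 13 of 18 members lower in MOR-sired NAC and at least 12 of 18 higher in MOR-sired VTA. Without the 4 libraries with Xist, all of VTA, 11 were higher in VTA and 11 had opposite signs, and the median interaction was 0.18. Without the 2 libraries rich in ribosomal RNA, 15 were higher in VTA and the median interaction was 0.14. With library totals as the only scaling, 8 were higher in VTA and the median interaction was 0.08, a scaling that shifted the median interaction of all genes to -0.10. With cell type scores in the model it was 0.14, with 10 higher in VTA. Over all 40 alternatives run on the list, the median interaction stayed positive. The summed level of the list was 896 ± 35.1 CPM (SD, n = 7) in NAC of saline-sired and 858 ± 57.7 CPM (SD, n = 7) in NAC of morphine-sired rats, and in VTA 1057 ± 91.7 CPM and 1119 ± 53.6 CPM (SD, n = 5 for either), so sire groups overlapped in both regions.

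**Figure D3:**
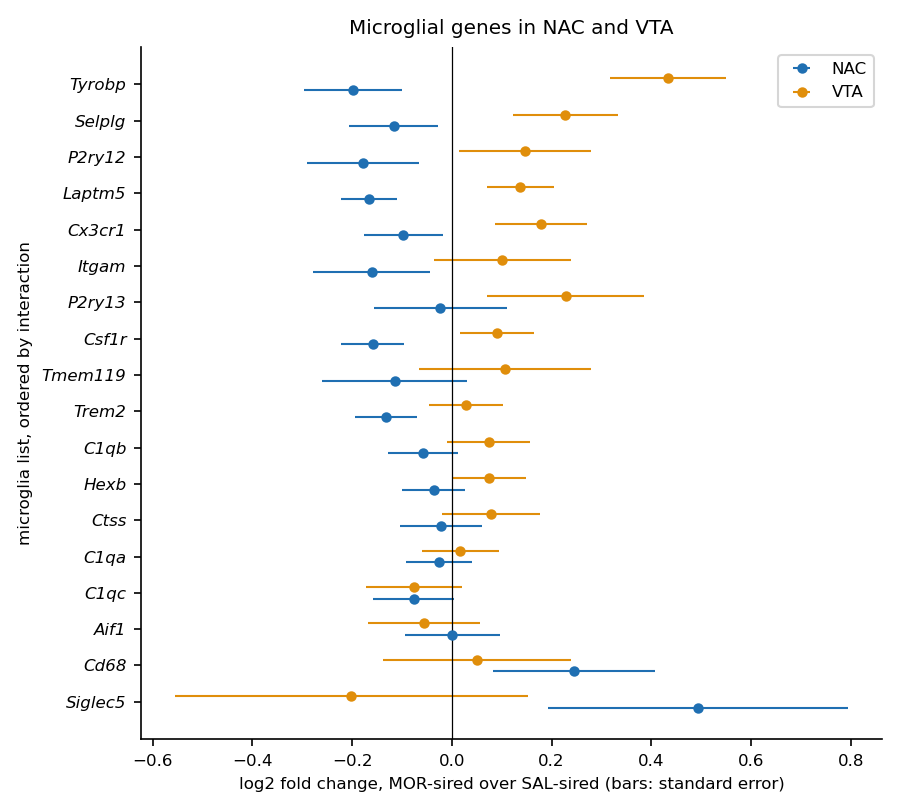
Log2 fold change of MOR-sired over SAL-sired libraries (x axis) for the 18 microglial genes tested (y axis, ordered by interaction), in NAC (blue) and VTA (orange), with bars of 1 SE. For 14 genes the NAC point lies left of 0 and the VTA point right of it, from Tyrobp at the top to C1qa.

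Other lists are given for comparison, and the opposite pattern was not limited to microglia. Of 7 midbrain GABA neuron genes, 6 (85.7%) had opposite signs, with medians of -0.06 in NAC and 0.31 in VTA, and of 9 dopamine neuron genes 6 did, with medians of -0.09 and 0.23. These are the 7 of 10 and the 9 of 18 listed genes that reached the level set for both regions. Some are made by other cells in NAC, such as Drd2, which is also in the striatal list. Their signs need not compare the same cells in the regions. With cell type scores in the model the median interactions of the midbrain GABA and dopamine lists went from 0.48 to 0.15 and from 0.27 to 0.06. The dopamine list is itself one of the scores, so its drop was built into that model. Endothelial genes also had mostly opposite signs, with 14 of 17 lower in MOR-sired NAC, 14 of 17 higher in VTA and 11 (64.7%) opposite, and a median interaction of 0.14. Eng, a co-receptor of TGF-beta ligands, had an interaction of 0.32, Vwf, the von Willebrand factor, one of 0.31 and Pecam1 one of 0.26, all at an unadjusted p under 0.05. Without the libraries with Xist, Eng was at 0.20 and Pecam1 at 0.23, with unadjusted p of 0.187 and 0.134. Over the list in that setting, 16 of 17 were higher in VTA and the median interaction was 0.16. Only MOR-sired VTA 1 and 2 were then left in their group. Without MOR-sired VTA 1 the number higher in VTA was 8 of 17, and with library totals as the scaling it was 3. In the model with cell type scores, 6 of 17 were opposite and the median interaction was -0.00. Most listed genes of mural cells and fibroblasts were instead lower, 14 of 16 in MOR-sired NAC and 12 of 16 in MOR-sired VTA, with medians of -0.18 and -0.22. Without the libraries with Xist, 10 of 16 were lower in VTA, with a median of -0.16. Without SAL-sired NAC 7, 13 of 16 were lower in NAC. Summed over the list, the VTA levels of the sire groups overlapped. Their means were 422 (saline-sired) and 407 CPM (morphine-sired), and their medians 402 and 420 CPM. The collagen genes led this list: Col1a2 was at -0.55 in NAC and -1.91 in VTA, Col1a1 at -0.54 and -1.33, and Col3a1 at -0.54 and -1.15. These are genes of the meninges and vessel walls, whose share of a punch was not measured.

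Interferon and MHC genes showed how far 1 library can set a list. In VTA 23 of 24 were higher in MOR-sired libraries, with a median log2 fold change of 0.26, and in NAC 11 of 24 were lower, with a median of 0.01. The summed level was 1234 CPM in MOR-sired VTA 3, a library with Xist, and at most 834 CPM in the other 4 of its group. Without MOR-sired VTA 3, 11 of 24 were higher in VTA and the median interaction was 0.01 in place of 0.26. Cd74, the MHC class II chaperone, was at 1.18 in VTA with all libraries and at -0.35 without those with Xist.

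Among all single genes, Stk32b gave the smallest interaction p. It encodes a serine/threonine kinase of little-known function. Its VTA levels were 3.38, 3.89, 3.20, 4.38 and 4.92 CPM in SAL-sired libraries 1 to 5 and 7.82, 9.39, 6.03, 6.60 and 6.48 CPM in MOR-sired ones. In NAC the lowest, median and highest were 2.13, 2.76 and 3.34 for SAL-sired and 1.78, 2.40 and 2.76 CPM for MOR-sired libraries. All MOR-sired VTA libraries were above all SAL-sired ones, while the NAC groups overlapped. Its log2 fold change was 0.87 (SE 0.15) in VTA and -0.19 (SE 0.13) in NAC, and the interaction was 1.06 (95% interval 0.66 to 1.47, unadjusted p = 1.58e-05). Without the libraries with Xist the interaction was 1.40, with an edgeR Benjamini-Hochberg adjusted p of 0.0178, and without those rich in ribosomal RNA it was 0.96. The value of 1.40 rests on MOR-sired VTA 1 and 2 alone in that group, which had the highest Stk32b levels. Over all libraries the edgeR Benjamini-Hochberg adjusted p of Stk32b was 0.241, and DESeq2 called it.

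Gata2, Slc6a5 and Gchfr were higher in MOR-sired VTA and differed in NAC by less than their SE. Gata2, which specifies GABA neurons in the midbrain, had 5.09, 5.18, 4.68, 3.82 and 5.60 CPM in SAL-sired VTA 1 to 5 and 8.22, 10.1, 6.72, 7.17 and 6.79 CPM in MOR-sired VTA 1 to 5. Slc6a5, the neuronal glycine transporter, had 1.48, 2.02, 0.572, 0.919 and 3.05 CPM and 10.5, 9.29, 3.69, 6.63 and 1.77 CPM, where MOR-sired VTA 5 lay within the SAL-sired range. Gchfr, the regulator of the enzyme that makes the tetrahydrobiopterin cofactor, had 12.9, 21.3, 13.2, 17.7 and 26.8 CPM and 59.6, 57.4, 27.2, 43.5 and 33.2 CPM. The interactions were 0.73 (SE 0.19), 2.20 (SE 0.57) and 1.20 (SE 0.34), and the NAC log2 fold changes were -0.06, -0.22 and 0.06. Without the libraries with Xist the interactions were 1.02, 3.21 and 1.78, and Slc6a5 then passed the test, with a Benjamini-Hochberg adjusted p of 0.0212 by edgeR. These values again rest on MOR-sired VTA 1 and 2 alone in that group. Over all libraries the edgeR Benjamini-Hochberg adjusted p of Slc6a5 was 0.376, and DESeq2 called it.

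Tph2 was likewise higher in every MOR-sired VTA library, and Gchfr is itself in the serotonin list. All 4 members of that list that could be tested were higher in MOR-sired VTA, with a median log2 fold change of 0.76 against 0.01 in NAC. The summed level of the list was 81.3 to 190 CPM in VTA of saline-sired and 191 to 428 CPM in VTA of morphine-sired rats. Slc6a4, the serotonin transporter, was at 0.156 to 33.4 and 37.2 to 107 CPM in the same order, and Fev, the serotonin neuron transcription factor, at 0.208 to 3.05 and 2.71 to 10.6 CPM. With cell type scores in the model, the interaction of Slc6a5 was 0.23, that of Gata2 0.29, that of Gchfr 0.17 and that of Stk32b 0.70, all lower by more than 1.5 times. The serotonin list sums of the VTA sire groups did not overlap, so the serotonin score and sire are hard to tell apart there. What these lower values owe to either was not tested. Gchfr is part of the serotonin score, so a drop in its value was built into that model.

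Rprml and Col6a2 were lower in MOR-sired VTA and nearly level in NAC. Rprml, a relative of the cell-cycle gene reprimo, had 6.03, 8.56, 6.68, 10.5 and 6.03 CPM in SAL-sired VTA 1 to 5 and 2.12, 2.76, 3.99, 5.99 and 3.70 CPM in MOR-sired VTA 1 to 5, with no overlap. In NAC, where it was far more abundant, the lowest, median and highest were 124, 134 and 149 for SAL-sired and 112, 131 and 139 CPM for MOR-sired libraries. Its interaction was -0.91 (SE 0.23), and -1.63 without the libraries with Xist. The edgeR Benjamini-Hochberg adjusted p of Rprml was 0.374 over all libraries, where DESeq2 called it. Without the libraries with Xist the edgeR value was 0.00334, with MOR-sired VTA 1 and 2 alone in that group. Col6a2, a collagen VI chain, had 18.0, 9.66, 10.9, 13.6 and 5.47 CPM and 4.09, 5.07, 5.59, 5.19 and 6.19 CPM, overlapping only through SAL-sired VTA 5, a library with Xist. Its interaction was -0.98 (SE 0.26), and -1.36 without the libraries with Xist, where its edgeR Benjamini-Hochberg adjusted p was 0.0403 with MOR-sired VTA 1 and 2 alone in that group. It was -0.35 with cell type scores in the model (unadjusted p = 0.306).

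Vwa5b1 and Iqcc, both of little-known function, had opposite signs without reaching an unadjusted p under 0.05 in both regions. Vwa5b1 was at -0.67 (SE 0.16) in NAC and 0.29 (SE 0.18) in VTA, and its NAC medians were 2.55 for SAL-sired and 1.54 CPM for MOR-sired libraries. The edgeR Benjamini-Hochberg adjusted p of its interaction was 0.374, and DESeq2 called it. Iqcc was at 0.15 (SE 0.09) in NAC and -0.38 (SE 0.10) in VTA, where the 5 MOR-sired libraries lay between 3.59 and 3.92 CPM and all SAL-sired ones were higher. Rn45sl1, a gene named for the 45S ribosomal precursor, had an interaction of 2.65 that was 1.13 without the 2 libraries rich in ribosomal RNA, where its level was 46.8 and 36.5 CPM.

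Genes of shared direction had small and even differences. Of the 30, 26 were protein-coding with a symbol, 19 higher and 7 lower in MOR-sired libraries of both regions, with a median absolute log2 fold change of 0.15 in NAC and 0.17 in VTA. Their choice in both regions also makes a small average p near certain, and all 26 had one under 0.05 by the same edgeR test, unadjusted. All 26 kept their sign in VTA without the libraries with Xist, and 6 then had an unadjusted p under 0.05 there. They included genes of protein turnover (Usp21, Aup1, Fbxw5) and of transcription and splicing (Crtc2, Nr2c2, Yju2b, Srsf2, Gps2, Bap1), named after their values were seen and not tested as groups. The largest shared difference was that of Msx1, a homeobox transcription factor, at -0.88 (SE 0.27) in NAC and -0.73 (SE 0.32) in VTA, with group means between 1.12 and 2.11 CPM. RT1-CE13, an MHC class I gene, was at 0.45 and 0.40, values that are uncertain because its near-identical copies can share reads.

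Inpp5b, an inositol polyphosphate 5-phosphatase of endosomes and Golgi, gave the smallest p of the average effect. Its levels in VTA were 30.8, 33.9, 35.1, 33.7 and 33.2 CPM in SAL-sired libraries 1 to 5 and 35.6, 39.4, 37.9, 39.1 and 37.9 CPM in MOR-sired ones, with no overlap. In NAC the lowest, median and highest were 31.9, 33.0 and 34.9 for SAL-sired and 34.1, 37.0 and 41.0 CPM for MOR-sired libraries, a narrow overlap. The log2 fold change was 0.16 (SE 0.04) in NAC and 0.19 (SE 0.05) in VTA, which is 1.12-fold and 1.14-fold. The average effect was 0.18 (95% interval 0.11 to 0.24, unadjusted p = 8.78e-06), with an adjusted p of 0.134 by edgeR and Benjamini-Hochberg. The interval of the difference between regions ran from -0.10 to 0.15.

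Yju2b, a homologue of a splicing factor, was nearly as even. Its VTA levels were 17.6, 16.7, 17.4, 19.1 and 18.0 for SAL-sired and 19.9, 20.3, 18.7, 22.6 and 19.3 CPM for MOR-sired libraries 1 to 5, which overlapped through MOR-sired VTA 3. In NAC the lowest, median and highest were 19.3, 20.5 and 22.3 for SAL-sired and 21.9, 23.2 and 25.0 CPM for MOR-sired libraries. The log2 fold change was 0.17 (SE 0.05) in NAC and 0.18 (SE 0.06) in VTA. Its average effect of 0.18 (SE 0.04) was 0.17 without the libraries with Xist.

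Csf2ra, the alpha chain of the GM-CSF receptor of myeloid cells, was higher in both regions, unlike the microglial list. Its NAC lowest, median and highest were 6.78, 8.29 and 9.08 for SAL-sired and 8.91, 10.8 and 11.9 CPM for MOR-sired libraries. In VTA it had 4.12, 4.89, 4.50, 4.29 and 5.10 for SAL-sired and 4.28, 5.22, 6.35, 5.65 and 6.00 CPM for MOR-sired libraries 1 to 5. The log2 fold change was 0.38 (SE 0.09) in NAC and 0.27 (SE 0.11) in VTA, but 0.09 in VTA without the libraries with Xist, which were the highest 3 of the MOR-sired group.

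Crtc2, a co-activator of the cAMP-responsive factor CREB, was at 0.22 (SE 0.08) in NAC and 0.24 (SE 0.09) in VTA. Its VTA levels were 23.5, 26.0, 28.9, 28.6 and 23.8 for SAL-sired and 28.4, 29.4, 29.0, 33.2 and 34.3 CPM for MOR-sired libraries 1 to 5, overlapping through MOR-sired VTA 1 alone. Aup1, which acts in lipid droplets and in the removal of misfolded proteins, was at 0.12 (SE 0.04) and 0.14 (SE 0.05), and the deubiquitinase Usp21 at 0.16 (SE 0.05) and 0.16 (SE 0.06). Without the libraries with Xist the VTA values of Crtc2 and Usp21 were 0.11 and 0.05, both lower by more than 1.5 times, and that of Aup1 was 0.12. Tjap1, a tight junction protein, was at 0.41 (SE 0.11) in NAC and 0.31 (SE 0.13) in VTA.

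Lower in both regions were Nr2c2, an orphan nuclear receptor, and Msra, which repairs oxidised methionine. Nr2c2 was at -0.12 (SE 0.04) in NAC and -0.12 (SE 0.05) in VTA. Its VTA levels were 31.6, 32.8, 33.0, 30.7 and 29.7 for SAL-sired and 30.5, 28.3, 28.1, 29.5 and 28.6 CPM for MOR-sired libraries 1 to 5, a partial overlap. Msra was at -0.14 (SE 0.06) and -0.18 (SE 0.07). In VTA it had 25.4, 29.9, 27.7, 28.9 and 26.1 for SAL-sired and 24.8, 24.4, 24.4, 25.3 and 23.2 CPM for MOR-sired libraries 1 to 5, with no overlap.

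**Figure D4:**
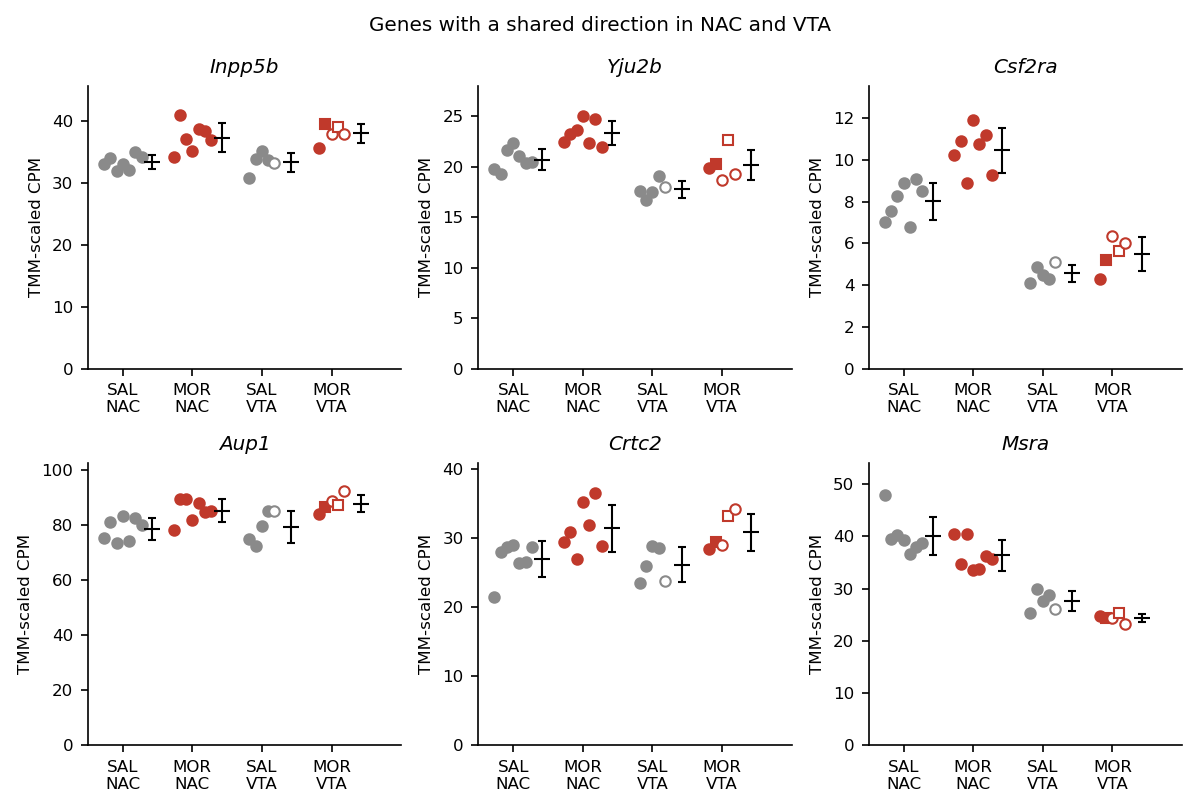
TMM-scaled CPM (y axis, from 0) of 6 genes of shared direction in each library of the 4 groups (x axis), with mean and SD in black and symbols as in the plot of opposite-direction genes. Inpp5b, Yju2b, Csf2ra, Aup1 and Crtc2 had the higher mean and Msra the lower mean in the MOR-sired libraries of both regions.

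Arsa, Tnnt2 and Rn45sl2 were also among the 10 symbols of smallest average p, with the larger value in VTA. Arsa, the lysosomal arylsulfatase, was at 0.22 (SE 0.05) in VTA and 0.06 (SE 0.04) in NAC. Tnnt2, a cardiac troponin, was at -2.57 (SE 0.54) in VTA, where SAL-sired libraries 1 to 5 spread over 15.4, 6.98, 1.74, 9.35 and 1.24 CPM and the MOR-sired ones lay between 0.688 and 1.53 CPM. Rn45sl2 was at 3.41 (SE 0.76) in VTA, highest in MOR-sired VTA 1 at 25.2 CPM.

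Genes chosen in 1 region were then read in the other, whose libraries had no part in the choice. Of the 100 genes with a symbol of smallest p in NAC, fitted alone, 71 had the same sign in VTA, against 54.4% of all genes with a symbol. Of those 100, 77 were higher in MOR-sired NAC and 60 of the 77 were higher in VTA, while 23 were lower and 11 of the 23 were lower in VTA. For the 100 genes chosen in VTA, 57 had the same sign in NAC. The number at an unadjusted p under 0.05 in the other region was 4 and 5 of 100, close to the 5.01% and 5.71% of all genes with a symbol. The effects carried over were small: the median in the direction of the choice was 0.05 in VTA and 0.01 in NAC, against a median of 0.31 in the region of choice.

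Genes already reported for a single region were read the same way. Glt8d1, a glycosyltransferase, was at 0.42 in NAC and -0.02 in VTA, and Haghl, a hydrolase homologue, at 0.37 and -0.09. Lmbr1l, a lipocalin receptor, was at 0.40 and 0.07, and Usp53, a tight junction protein, at -0.28 and -0.00. Aqp4, the water channel of astrocytes, was at -0.29 in NAC and 0.01 in VTA. In the reverse direction Cited1, a transcriptional co-activator, was at 1.00 in VTA and -0.04 in NAC, Rhog, a small GTPase, at 0.26 and -0.01, Zyx, a focal adhesion protein, at 0.26 and 0.00, and the glutathione transferase Gstm6 at 0.50 and -0.12. Of the genes just named, Aqp4 and Zyx did not reach an unadjusted interaction p under 0.05. The interaction also holds the values of the region in which these genes were reported from these same data. A small p is therefore partly set by that choice, and only the value in the other region is a separate reading. Without the libraries with Xist the interaction of Lmbr1l went from -0.34 to -0.53 and that of Aqp4 from 0.30 to 0.13. With cell type scores in the model, those of Glt8d1, Haghl, Lmbr1l, Usp53, Aqp4 and Cited1 were -0.26, -0.27, -0.13, 0.15, 0.07 and 0.62, each smaller by more than 1.5 times.

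No gene of opioid or dopamine signalling that was followed throughout passed the adjusted test. Of 10 genes followed in every comparison (the receptors Oprm1, Oprd1, Oprk1, Drd1 and Drd2, the peptide precursors Pdyn and Penk, and Bdnf, Fos and Th), none had an unadjusted p under 0.05 in either region, for the interaction or for the average, and the smallest interaction p was 0.282, for Th. Oprm1, the mu opioid receptor on which morphine acts, was at -0.44 (SE 0.29) in NAC and 0.02 (SE 0.34) in VTA, with an interaction interval from -0.46 to 1.38. Th, the rate-limiting enzyme of dopamine synthesis, had an interaction of 0.37 (interval -0.32 to 1.05), and Drd2 one of 0.48 (interval -1.15 to 2.12). These intervals are wide enough to hold differences as large as that of Tyrobp. The values depended on the model. Oprd1, the delta opioid receptor, was at -0.27 with all libraries, at -0.95 without those with Xist (unadjusted p = 0.0268) and at 0.94, of the other sign, with cell type scores (unadjusted p = 0.0322). Under the latter model Oprm1 was at 0.84 (unadjusted p = 0.0128) and Pdyn, the dynorphin precursor, at -0.62 (unadjusted p = 0.01). Pdyn is itself part of the striatal score of that model, so its value there is not independent of the score.

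Across the 34 opioid system genes tested, 26 were lower in MOR-sired NAC and 20 lower in MOR-sired VTA, with medians of -0.05 and -0.03, and 18 (52.9%) had opposite signs. Pnoc, the precursor of nociceptin, was the 1 member with an unadjusted interaction p under 0.05, at -0.08 in NAC and 0.87 in VTA. Among 22 striatal medium spiny neuron genes, 21 were lower in MOR-sired NAC with a median of -0.11, but 4 of 22 were lower without SAL-sired NAC 3 and 11 of 22 without MOR-sired NAC 3. For 54 enzymes of DNA methylation and histone modification the median interaction was 0.01, and 2 had an unadjusted interaction p under 0.05, both negative, where 2.11% of all genes were negative at that threshold: Hdac3, a class I deacetylase (0.14 in NAC, -0.02 in VTA), and Hdac10 (0.50 and 0.09).

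**Figure D5:**
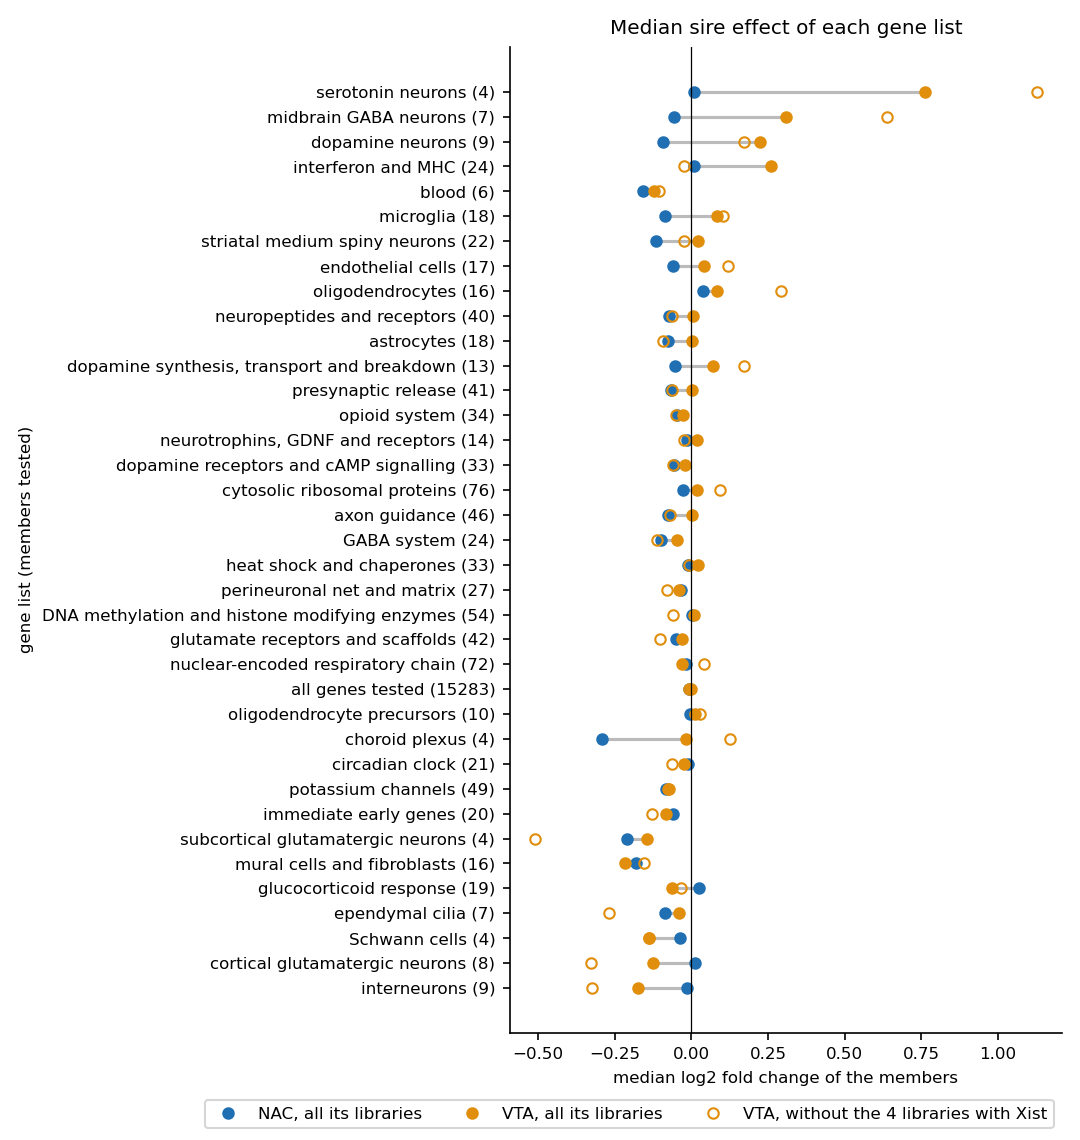
Median log2 fold change (x axis) of the members of each gene list (y axis, number tested in brackets) in NAC (blue) and VTA (orange), ordered by the median interaction, with open circles for VTA without the 4 libraries with Xist. The lists of microglia, endothelial cells, dopamine neurons and midbrain GABA neurons are among those that lie left of 0 in NAC and right of 0 in VTA with either set of VTA libraries, and the interferon and MHC list moves from 0.26 to -0.02 in VTA.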

How the data were processed

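Punches of NAC (14 libraries) and VTA (10) were sequenced by RNA-seq from total RNA with a directional kit, per the labels' protocols. The authors deposited estimated counts per gene, 1 table per region; the submitters' processing notes name kallisto, DESeq2 and Trim Galore. Per the file names the authors scaled transcript abundances to library totals, so short RNAs weigh more than their reads. For build, annotation, strand setting and tool versions: not given in the sources used here. RefSeq GRCr8 gave names, matching all 37403 identifiers, and promoters. Here the values were rounded, the tables joined on gene symbol, and genes kept at 1 CPM in 5 libraries of each region. edgeR 4.0.16 (R 4.3.3) fitted 4 group means over all 24 libraries with TMM factors and its quasi-likelihood test, two-sided, with Benjamini-Hochberg adjustment over 15283 genes. Each SE was obtained by dividing the log2 fold change by the root of its F, and intervals are 95%. Code was tested on simulated data. Alternatives used DESeq2 1.42.0, limma 3.58.1, other scalings, filters and covariates, and leaving out libraries; the one without the 2 libraries rich in ribosomal RNA was chosen after seeing the data. Members and the 36 gene lists were chosen with earlier results of these data known. Named genes were the 12 symbols of smallest interaction p, the 10 of smallest average p, up to 8 of opposite and 8 of shared direction at an unadjusted p under 0.05 in both regions, 11 set genes, genes reported earlier for 1 region, and up to 2 members per list by interaction p. Laptm5 came in through the last 2 of these, and other names were chosen after their values were seen.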

Additional observations from a re-analysis of the deposited data

Results flagged for a closer look

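Of 232 groups of 5 or 7 libraries examined over 58 genes, list sums and library totals, 14 (6.03%) held a library that stood far from the rest of its group, where chance gives about 1 in 20. No library held more than 2 of the 14. In SAL-sired NAC, Rn45sl1 was at 13.2 CPM in library 4 (5.01 to 8.35 in the others), Tmem176a at 68.4 CPM in library 3 (75.96 to 80.71), Oprd1 at 16.4 CPM in library 3 (9.38 to 11.9), Crtc2 at 21.5 CPM in library 1 (26.4 to 29.1), Msra at 48.01 CPM in library 1 (36.7 to 40.2) and Gchfr at 7.57 CPM in library 7 (3.02 to 4.82). The mural cell and fibroblast genes summed to 355 CPM in SAL-sired NAC 7 (243 to 273), and SAL-sired NAC 5 had a total of 41.3 M counts (21.9 to 29.1). In MOR-sired NAC, Iqcc was at 3.99 CPM in library 3 (4.44 to 4.70), Usp21 at 46.2 CPM in library 1 (52.6 to 54.7), and the interferon and MHC genes summed to 351 CPM in library 4 (500 to 604). In MOR-sired VTA, Oprk1 was at 12.6 CPM in library 2 (16.2 to 17.2), Glt8d1 at 35.2 CPM in library 5 (25.3 to 27.5), and the interferon and MHC genes summed to 1234 CPM in library 3 (798 to 834).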

How the results depend on the processing

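The count of genes called for the interaction was 0 under most settings, and 30 with DESeq2, 6 with each region fitted alone and 23 without the 4 libraries with Xist. Ribosomal RNA identifiers, many with identical values, made up most of the 30 and of the 23. For the average effect 13 were called with DESeq2, 4 without the libraries with Xist and 1 with cell type scores. Genes of opposite direction numbered 12, against 23 with limma-voom, 23 with total counts only, 73 with no filter, 21 with filterByExpr, 6 at a CPM of at least 5, 28 without the libraries with Xist and 29 with cell type scores. Genes of shared direction numbered 30, against 74 with limma-voom, 18 with total counts, 77 with no filter, 14 with an Xist covariate, 178 with cell type scores and 15 without the 2 libraries rich in ribosomal RNA. Leaving out 1 library at a time gave 0 interaction calls each time, 0 to 1 average calls (1 without MOR-sired NAC 1, SAL-sired VTA 5 or MOR-sired VTA 4), 8 to 18 opposite and 18 to 41 shared genes (18 to 19 without MOR-sired NAC 2 or 5 or MOR-sired VTA 4 or 5), and 43.1% to 48.2% of genes of opposite sign. The replicate block gave 0 interaction calls and 1 average call, with 9 opposite and 36 shared genes. Same-numbered libraries of different groups did not deviate together: over 32 pairs r ran from -0.23 to 0.22, with 6 over 0.1 and 9 best matched to their own number. Of 116 named genes, 55 had an unadjusted interaction p under 0.05 and 54 of these kept their sign in every alternative that could be run; S100b reversed to -0.0020 with cell type scores. Of the other 61, 26 changed sign in at least 1 alternative. The cause of these shifts was not tested. At this depth genes under 1 CPM were not compared, and a median interaction SE of 0.14 limits what could be seen.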
